A study of Mus musculus with 12 samples.

Results

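The growth hormone and IGF1 axis was followed through 8 genes in mouse liver: the receptor gene Ghr, the transcription factor genes Stat5a and Stat5b, the circulating products Igf1 and Igfals, the feedback inhibitors Socs2 and Cish, and the repressor Bcl6. They were taken by symbol, matched to the Ensembl gene ID of each row, and are 8 of 55359 genes in the table. All 8 passed the filter on low counts, as did 15274 genes in all. RNA was sequenced from liver sections of 12 male C57BL/6NTac mice, 4 in each of 3 groups, whose design compares a steatotic liver disease diet with chow and a treatment with its control. The lean group was kept on normal chow and injected with a control mRNA. The HFD control group was kept on a high-fat diet and also given a control mRNA. The NM-FGF19 group, on the high-fat diet too, was injected with mRNA for NM-FGF19, the non-mitogenic FGF19 of the series title. FGF19 is a gut hormone that lowers bile acid synthesis. Every group, the lean one included, therefore received mRNA in lipid nanoparticles, weekly for 6 weeks, and livers were collected 24 hours after the final injection. The labels give the mice as 24 weeks old, and differ on how long they were fed, with 21 weeks up to the first injection or 28 weeks in all. The HFD control columns are named after mouse OX40L, while the labels say only that lean and HFD control mice received control mRNA, so diet and control mRNA may differ together between these groups and cannot be told apart.

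Growth hormone from the pituitary binds GHR on hepatocytes, where the kinase JAK2 phosphorylates the receptor and STAT5, mainly STAT5B in liver. STAT5 then enters the nucleus and drives Igf1, Igfals, Socs2 and Cish, and the liver is the main source of circulating IGF1. SOCS2 and CIS, the product of Cish, damp the signal at the receptor, and BCL6 competes with STAT5 for DNA and represses many of the same genes. Secretion is pulsatile, above all in male rodents, so STAT5 activity and its quickly made targets vary with the time since the last pulse, and this male pattern maintains a set of male-biased liver genes and holds down female-biased ones.

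The palindrome bound by STAT5, TTCNNNGAA, was searched in the RefSeq start-site windows of the members, which run from 250 bases before to 50 bases after each start on build GRCm38.p6. The motif reads the same on both strands. It is found in 2726 of 32851 such windows over all genes (8.3%), and 150 (0.457%) hold 2 or more. The window of Cish holds 2 copies, at bases 1 to 20 after the start, and none before it. The search was first meant for the bases before the start and was widened once the Cish copies were seen, so that hit was not found independently. Before the start alone, 7.02% of windows hold the motif. Bcl6 holds 1 copy at its first start and 3 at its second. Igfals holds 1 copy in each of 2 of its 3 windows. The windows of Ghr, Igf1, Stat5a and Stat5b hold none, which says only that these letters are not there. The sites are shown, with the motif in capitals, because Cish and Bcl6 are among the members that varied most between mice of a group. A match is not evidence that the factor was bound.
Cish, chr9:107296654-107296683, plus strand: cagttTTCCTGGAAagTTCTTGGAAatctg
Bcl6 first start, chr16:23988952-23988980, minus strand: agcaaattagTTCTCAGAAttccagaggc
Bcl6 second start, chr16:23981433-23981461, minus strand: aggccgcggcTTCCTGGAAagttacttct
Bcl6 second start, chr16:23981387-23981415, minus strand: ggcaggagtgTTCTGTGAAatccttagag
Bcl6 second start, chr16:23981353-23981381, minus strand: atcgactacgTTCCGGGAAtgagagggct
Igfals, chr17:24877598-24877626, plus strand: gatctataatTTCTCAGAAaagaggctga
Igfals, chr17:24878163-24878191, plus strand: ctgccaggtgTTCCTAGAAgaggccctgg

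The libraries held 23743415 to 33257260 counts. Levels are CPM, the count of a gene relative to the size of its library, with library totals scaled by the TMM method, which sets a typical gene to the same level in all libraries. Changes are log2 fold changes ± SE, tested with the quasi-likelihood method of edgeR. The Benjamini-Hochberg adjustment covers all genes tested, and a gene is called where the adjusted p is under 0.05. The p-values measure the spread between these 12 mice. On the first 2 principal components the libraries most distant from the rest of their group were lean 3 and HFD control 3, so results are also given without both. Hepatocyte markers were high in every library, with a summed level of 107900 to 151200 CPM in lean, 69880 to 93770 in HFD control and 116200 to 167500 in NM-FGF19 livers. In the comparison of HFD control with lean livers, 2 of 10 hepatocyte, 5 of 6 Kupffer cell and 1 of 5 bile duct markers were lower, and 6 of 8 recruited macrophage, 4 of 8 stellate cell, 1 of 7 endothelial and 1 of 2 tested adipocyte markers were higher. None of the T cell, B cell or neutrophil markers was called there by edgeR. Summed Kupffer cell markers were at 423 to 577 CPM in lean, 125 to 460.4 in HFD control and 91.4 to 376 in NM-FGF19 livers, and recruited macrophage markers at 67.5 to 305, 107 to 331 and 77.3 to 211. For stellate cell markers the sums were 194 to 247, 419 to 1046 and 299.9 to 883 CPM. In NM-FGF19 against lean livers 4 of 8 recruited macrophage and 2 of 8 stellate cell markers were higher, and against HFD control the only call on these lists was 1 adipocyte marker, lower in NM-FGF19 livers. The part of these shifts in the values of the 8 genes was not tested, and in whole tissue fewer cells of a type and less RNA per cell cannot be told apart.

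None of the 8 genes was called in any of the 3 comparisons. Between HFD control and lean livers 0 of 8 were called, where 8.33% of all tested genes were, and 1 of 8 had an unadjusted p under 0.05, against 24.6% of all genes. In 0 of 8 did the groups fail to overlap, against 15.3% of all genes. The median log2 change was −0.36 over the 8 genes and −0.02 over all genes tested. Between NM-FGF19 and HFD control livers 0 of 8 were called (0.432% of all genes), 0 of 8 had an unadjusted p under 0.05 (8.94%) and 0 of 8 did not overlap (5.62%). The medians were 0.03 and 0.00. Between NM-FGF19 and lean livers 0 of 8 were called (1.49% of all genes), 2 of 8 had an unadjusted p under 0.05 (16.7%) and 2 of 8 did not overlap (10.3%). The medians there were −0.28 and −0.01. DESeq2 called 1, 0 and 1 of the 8 in the same order, Igf1 each time, where it called 14.5%, 1.89% and 6.34% of all genes. Limma voom called 0, 0 and 0 of the 8, against 7.06%, 0.334% and 0.733% of all genes. HFD control livers serve as one side of both the diet and the treatment comparison, so values from these comparisons are not independent.

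Ghr, the receptor gene through which the liver senses growth hormone, stood at the same level in all groups within their spread. Its level was 545, 469.6, 371 and 517 CPM in lean libraries 1 to 4, 521, 618, 337 and 521 in HFD control and 433, 535, 619 and 371 in NM-FGF19. The 3 groups overlapped almost wholly, with means of 476 ± 76.6, 499 ± 117 and 489.5 ± 110 CPM (SD, n = 4 each). The log2 change was 0.07 ± 0.21 for HFD control against lean (adjusted p = 0.876; 95% interval −0.38 to 0.52). For NM-FGF19 against HFD control it was −0.03 ± 0.21 (adjusted p = 0.988; interval −0.48 to 0.43). These intervals leave room for changes of up to about 0.5 on the log2 scale in either direction.

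Both STAT5 genes overlapped between groups as well. Stat5b, the form that carries most of the growth hormone signal in liver, was at 64.1, 78.2, 108 and 84.4 CPM in lean, 59.7, 84.2, 52.3 and 59.3 in HFD control and 82.0, 53.7, 88.9 and 52.8 in NM-FGF19 libraries. The highest library of each group was lean 3, HFD control 2 and NM-FGF19 3. Its log2 change was −0.39 ± 0.21 between HFD control and lean (adjusted p = 0.289) and 0.12 ± 0.21 between NM-FGF19 and HFD control (adjusted p = 0.94). With library totals as the only scaling the latter was −0.00. Stat5a, a close paralog better known for prolactin signalling in the mammary gland, was at 12.8, 19.0, 25.9 and 20.01 CPM in lean, 17.5, 12.1, 19.9 and 19.1 in HFD control and 24.5, 10, 16.5 and 12.3 in NM-FGF19 libraries. Its change was −0.18 ± 0.28 between HFD control and lean (adjusted p = 0.734), or 0.16 with library totals alone, and −0.11 ± 0.27 between NM-FGF19 and HFD control (adjusted p = 0.957). Stat5a overlaps Stat3 on the opposite strand in GENCODE vM21, and whether reads were counted by strand is not given in the sources used here, which leaves its counts uncertain.

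Igf1, the gene of the main circulating growth factor made under growth hormone, had the lowest p among the 8 genes in both comparisons with lean livers. It was at 737, 557 and 843 CPM in lean 1 to 3 and 501 in lean 4. In HFD control it was at 451, 551, 293 and 419, and in NM-FGF19 at 401, 436, 425 and 383. Only HFD control 2 reached into the lean range, while all 4 NM-FGF19 libraries lay below the lowest lean one. The NM-FGF19 libraries were also the closest together, at 411.5 ± 24.0 CPM, against 659.7 ± 158.5 in lean and 428 ± 106.5 in HFD control (SD, n = 4 each). The log2 change was −0.62 ± 0.20 for HFD control against lean (adjusted p = 0.0753; 95% interval −1.06 to −0.18). It was −0.68 ± 0.20 for NM-FGF19 against lean (adjusted p = 0.109; interval −1.12 to −0.24), and neither passed the threshold in edgeR's quasi-likelihood test.

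NM-FGF19 and HFD control livers did not differ in Igf1 beyond their spread, with a log2 change of −0.06 ± 0.20 (adjusted p = 0.977; interval −0.50 to 0.38). DESeq2 called the gene for HFD control against lean (adjusted p = 0.0288) and NM-FGF19 against lean (0.0272), and limma voom called neither (0.0786 and 0.142). Over 22 alternatives the adjusted p ran from 0.0288 to 0.347 in the first and from 0.0272 to 0.239 in the second. Without HFD control 2 the diet comparison was at −0.77 (adjusted p = 0.0375), and without lean 3 and HFD control 3 it was at −0.31 (adjusted p = 0.347). With library totals alone it was −0.30 (adjusted p = 0.272), a scaling under which the median of all genes was 0.29. An antisense gene, Igf1os, overlaps Igf1.

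Igfals encodes the acid-labile subunit, which holds IGF1 and its binding protein in a large complex in blood. It was at 159, 100.1, 75.9 and 82.1 CPM in lean, 78.3, 126, 42.3 and 86.3 in HFD control and 67.8, 99.3, 107 and 59.3 in NM-FGF19 libraries. The groups overlapped, and the highest and lowest library of each group were the same as for Ghr: lean 1, HFD control 2 and NM-FGF19 3 were highest, and lean 3, HFD control 3 and NM-FGF19 4 lowest. The log2 change was −0.33 ± 0.32 for HFD control against lean (adjusted p = 0.588) and 0.00 ± 0.32 for NM-FGF19 against HFD control (adjusted p = 0.997; interval −0.70 to 0.71).

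Socs2, a fast target and inhibitor of growth hormone signalling, had the most negative change of the 8 genes, with a wide error. It was at 37.6, 10.2, 103 and 76.7 CPM in lean libraries, 10.3, 35.9, 8.59 and 16.1 in HFD control and 9.37, 4.85, 37.7 and 22.1 in NM-FGF19. Lean 3 and lean 4 lay above every high-fat library, whereas lean 2 lay among the lowest, so the groups overlapped. The change was −1.68 ± 0.78 for HFD control against lean (adjusted p = 0.213; interval −3.40 to 0.04) and −1.62 ± 0.78 for NM-FGF19 against lean (adjusted p = 0.328). Without lean 3 and HFD control 3 these were −0.97 and −1.15. Between NM-FGF19 and HFD control it was 0.06 ± 0.76 (adjusted p = 0.992), with the sign turning in 8 of 22 alternatives.

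Cish, the other quickly made inhibitor, varied more within groups than between them. It was at 10.3, 14.8, 43.9 and 6.16 CPM in lean, 1.69, 25.6, 7.2 and 6.48 in HFD control and 2.32, 8.58, 63.6 and 7.61 in NM-FGF19 libraries. One library in each group stood above the rest: lean 3, HFD control 2 and NM-FGF19 3. The log2 change was −0.87 ± 1.06 for HFD control against lean (adjusted p = 0.672) and 1.01 ± 1.06 for NM-FGF19 against HFD control (adjusted p = 0.868), and without NM-FGF19 3 the latter was −0.75. Against lean, NM-FGF19 was at 0.13 ± 1.05 (adjusted p = 0.968). The opposite-strand genes Gm17040 and Gm17041 overlap Cish, which makes its counts uncertain.

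Bcl6, the repressor that opposes STAT5 in liver, was the only member whose NM-FGF19 libraries all lay above the lean ones. It was at 40.8, 21.2, 17.9 and 56.4 CPM in lean, 90.7, 18.1, 22.8 and 48.2 in HFD control and 123, 61.1, 58.7 and 68.5 in NM-FGF19 libraries. All 4 NM-FGF19 libraries lay above the highest lean one, while HFD control 1 lay above 3 of them. The change for NM-FGF19 against lean was 1.19 ± 0.52 (adjusted p = 0.281; interval 0.04 to 2.34), and over 22 alternatives it ran from 0.88 to 1.56 with 0 calls. For NM-FGF19 against HFD control it was 0.79 ± 0.52 (adjusted p = 0.724), and for HFD control against lean 0.40 ± 0.52 (adjusted p = 0.694). Gm37419 overlaps Bcl6 on the opposite strand.

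**Figure D1:**
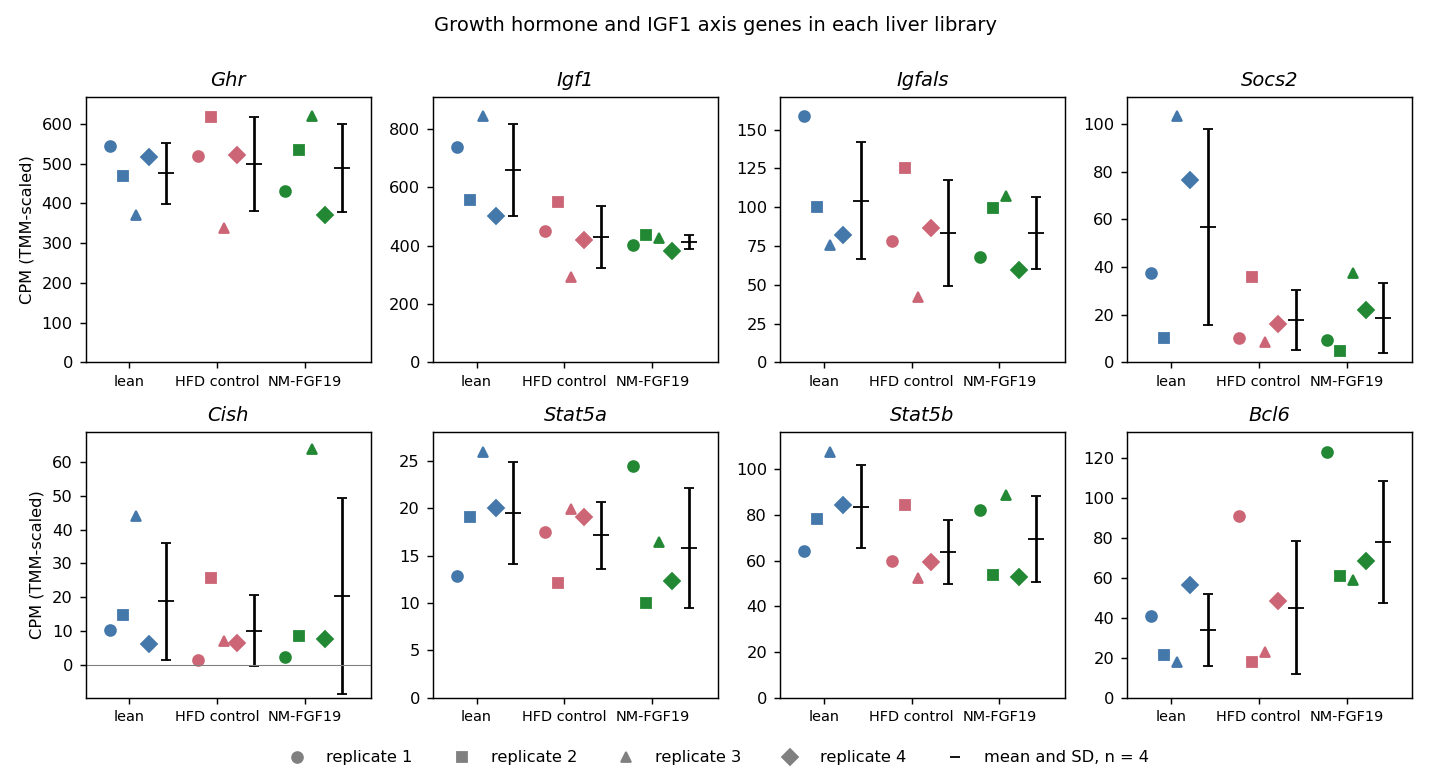
Level of each gene in CPM (linear axis, 1 panel a gene) in the 4 libraries of each group, with the marker shape giving the replicate number and the black bar the mean and SD (n = 4). All NM-FGF19 libraries lie below the lean ones for Igf1 (highest 436 against lowest 501 CPM) and above them for Bcl6 (lowest 58.7 against highest 56.4 CPM), while the other genes overlap.

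**Figure D2:**
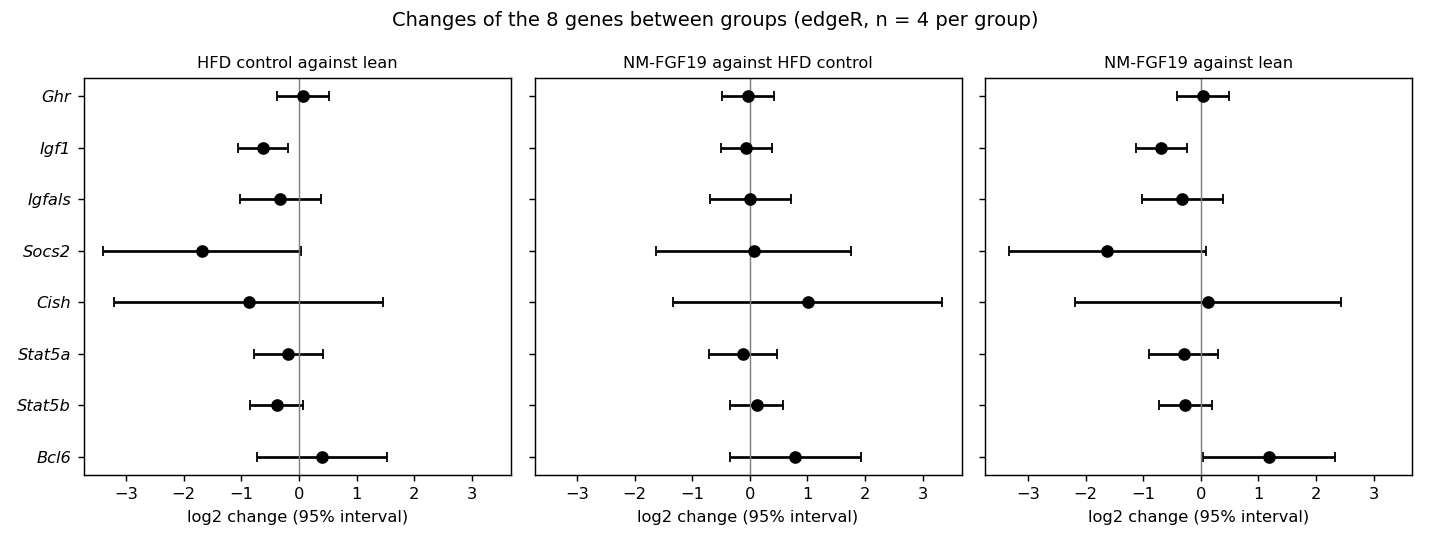
Log2 change of each gene in the 3 comparisons from edgeR, with points for the estimate and bars for the 95% interval, which is not adjusted for the number of genes. The interval of Igf1 excludes 0 in both comparisons with lean livers and that of Bcl6 only for NM-FGF19 against lean, and the intervals of Socs2 and Cish are the widest.

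Per kilobase of annotated exon, Igf1 and Ghr led. The length counts every annotated exon of a gene, and the transcripts made in liver may be shorter, so the order between genes is approximate. In lean livers Igf1 was at 66.6 ± 16.0 CPM per kb and Ghr at 52.5 ± 8.46, which overlap within their SD, followed by Igfals at 32.9 ± 11.9 and Stat5b at 15.1 ± 3.28. Socs2 (5.97 ± 4.33), Bcl6 (5.09 ± 2.68), Cish (2.93 ± 2.67) and Stat5a (2.73 ± 0.752) came last and did not differ from each neighbour beyond their spread. In HFD control livers the order began with Ghr at 55.2 ± 13.0 and Igf1 at 43.3 ± 10.8 CPM per kb, and in NM-FGF19 livers with Ghr at 54.1 ± 12.1 and Igf1 at 41.6 ± 2.42. Bcl6 came next after Stat5b in both high-fat groups, at 6.71 ± 4.96 and 11.6 ± 4.54 CPM per kb, and in NM-FGF19 livers lay beside Stat5b at 12.5 ± 3.40. Stat5b was above Stat5a in every group on this scale.

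The members differed in how much they varied between mice of one group. The within-group SD of log2 CPM was 1.61 for Cish, more than 99.4% of all tested genes, 1.26 for Socs2 (98.3%) and 0.81 for Bcl6 (90.2%). Igfals (0.52), Stat5a (0.44), Stat5b (0.34), Ghr (0.32) and Igf1 (0.30) were nearer the median gene at 0.32. The highest library was the same for Socs2, Cish and Stat5b in each group: lean 3, HFD control 2 and NM-FGF19 3. Bcl6 was lowest in those 3 libraries, at 17.9, 18.1 and 58.7 CPM. These orders were noticed in the libraries and were not tested.

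By the correlation of log2 CPM over the 12 libraries, given as a description that shares groups, depth and scaling, genes most like each member were sought among 12763. Ghr was followed most closely by Npr2 (Pearson r = 0.979), with Magix at 0.96. Igf1 was nearest to Eif5 (0.963), Atg16l1 (0.958) and Antxr2 (0.942), and Igfals to Ttc39b (0.919), Pms1 (0.914) and Gpld1 (0.905). Stat5b was nearest to Atp2a2 (0.961), Efr3a (0.950) and Golga4 (0.944). For Stat5a the nearest were Net1 (0.872), Cdk2ap1 (0.859) and Ccnyl1 (0.850). Socs2 was nearest to Wdr45b (0.883), Sec24b (0.868) and Gnl3 (0.858), Cish to Gadd45g (0.837), Wsb1 (0.822) and Gm16348 (0.82), and Bcl6 to Lrrc61 (0.863) and Nup107 (0.818). No member was among the nearest 3 of another.

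Of 19 other genes of growth hormone receptor signalling, 1 rose, 2 fell and 16 did not pass in HFD control against lean livers. The median log2 change was −0.10, with 7 positive and 12 negative. An unadjusted p under 0.05 was found for 11 of 19, against 24.6% of all genes, where 8.33% were called. Socs1, at 0.205, 0.0929, 0.408 and 0.612 CPM in lean libraries, is among these 11. It needed high-fat libraries to pass the filter, so its rise against lean is not independent of it. DESeq2 called 2 higher and 5 lower, and limma voom 1 and 1, against 14.5% and 7.06% of all genes. Stat3, which GHR and cytokine receptors activate, fell by a log2 change of −1.25 ± 0.29 (adjusted p = 0.0214), with 304 ± 131 CPM in lean and 128 ± 35.4 in HFD control livers. In 4 of 22 alternatives the call was lost: with HFD control 1 left out (−1.16), with HFD control 3 left out (−1.13), with lean 3 and HFD control 3 both left out (−0.78), and in the fit with a block for the replicate number (−1.22). Stat3 overlaps Stat5a on the opposite strand, so its counts are uncertain too. Ptpn2, for a phosphatase that removes phosphate from JAK and STAT proteins, changed by −0.67 ± 0.19 (adjusted p = 0.0474). Only 4 of 22 alternatives called it, and without lean 3 it was at −0.37 (adjusted p = 0.0886). Jak2 itself was at 0.20 ± 0.13 (adjusted p = 0.351). With library totals alone the list had 4 genes higher and 1 lower and a median of 0.22, and without lean 3 and HFD control 3 it had 1 higher and 0 lower. Over all genes, library totals alone gave 2381 higher and 228 lower of 15274, with a median of 0.29. Without lean 3 and HFD control 3, 323 of 15416 genes were higher and 157 lower. With 1 library left out, 0 to 1 of the list were higher and 0 to 5 lower (5 without lean 1, where 1160 of 15574 genes were called). The list median ran from −0.17 without lean 4 to −0.0072 without lean 3. In NM-FGF19 against HFD control and against lean, edgeR called 0 of 19, with 1 and 8 at an unadjusted p under 0.05. Over all genes 0.432% and 1.49% were called, and 8.94% and 16.7% had such a p. Socs1 is also among the 8 against lean. DESeq2 called 0 in the first and 1 higher and 1 lower in the second, limma voom called 0 in both, and edgeR without lean 1 called 1 lower in the second. Over all genes DESeq2 called 1.89% and 6.34%, and limma voom 0.334% and 0.733%. Without lean 1, edgeR called 165 of 15574 genes in the second. The list medians were −0.05 and −0.04, which changed sign with 1 library left out (up to 0.0548 without NM-FGF19 2 and 0.0647 without lean 3), and the latter was 0.16 with library totals alone. Under that scaling the median of all genes was 0.17.

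Of 16 genes for IGF receptors, binding proteins and their proteases 13 could be tested. Between HFD control and lean 1 rose, 0 fell and 12 did not pass, with a median of 0.30. An unadjusted p under 0.05 was found for 2, against 24.6% of all genes, where 8.33% were called. The median was 0.0196 without HFD control 3 and 0.58 without lean 3, and scaling by library totals alone gave 0.63 and 3 genes higher. Under that scaling 2381 of 15274 genes were called higher and the median of all genes was 0.29. The 1 called in the main fit was Stc1, for an inhibitor of the protease PAPP-A that frees IGF from its binding proteins. It was at 0.0685, 0.0929, 0.306 and 0 CPM in lean and 0.765, 0.232, 0.587 and 2.13 in HFD control libraries, with 3 counts corresponding to 0.0792 to 0.153 CPM. No lean library reached the filter's minimum count of 10. Stc1 therefore passed only through high-fat libraries, and its rise against lean is not independent of the filter. Its log2 change of 3.02 ± 0.86 (adjusted p = 0.0474) was called in 9 of 20 alternatives, with adjusted p up to 0.141 (2.21, without HFD control 4). Igfbp1, for a binding protein that fasting and stress raise, was at 1249 CPM in lean 3 and 13.4 to 57.2 in the other lean libraries, and is named after its values were seen. No gene of this list was called by edgeR in the comparisons with NM-FGF19, where 0.432% and 1.49% of all genes were. There 0 and 2 had an unadjusted p under 0.05, against 8.94% and 16.7% of all genes. DESeq2 called 0 and 1 (1.89% and 6.34% of all genes), and limma voom 0 and 0 (0.334% and 0.733%). The medians were −0.07 and 0.05, and with 1 library left out they ran from −0.33 (without NM-FGF19 4) to 0.14 (without HFD control 3) and from −0.0295 (without lean 2) to 0.51 (without lean 3).

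Male-biased liver genes that depend on STAT5 were mostly at lower values in HFD control than in lean livers without passing the test. Of 23 genes 22 had a negative log2 change, 1 was called lower, 0 higher and 10 had an unadjusted p under 0.05, with a median of −0.95. Over all genes tested the median was −0.02, and in either direction 8.33% were called and 24.6% had such a p. The list holds several genes of the Mup family and both Cyp4a12a and Cyp4a12b, so its genes are not independent of each other. The called gene was Ugt2b38, for a conjugating enzyme of a family with similar copies, at 18.2 ± 15.2 CPM in lean and 1.38 ± 1.14 in HFD control livers, a log2 change of −3.73 ± 0.98 (adjusted p = 0.041). It was called in 12 of 22 alternatives, with adjusted p up to 0.127, and was at −3.00 without lean 4. DESeq2 called 8 of the list lower (14.5% of all genes were called either way) and limma voom 4 (7.06%), and edgeR called 9 without HFD control 2 (median −1.81) and 0 without lean 3 and HFD control 3 (median −1.11). Over all genes, edgeR called 1528 of 15545 without HFD control 2 and 480 of 15416 without lean 3 and HFD control 3. Against HFD control, NM-FGF19 livers had 17 positive and 6 negative changes with a median of 0.58. By edgeR 0 were called (0.432% of all genes) and 5 had an unadjusted p under 0.05 (8.94%). DESeq2 called 1 higher (1.89% of all genes were called), limma voom called 0 (0.334%), and edgeR without HFD control 2 called 1 higher (78 of 15545 genes were called). The median was 1.28 when HFD control 2 was left out and was 0.29 or 0.37 when HFD control 3 or 4 was, and 0.21 when NM-FGF19 3 was. Against lean they had 2 positive and 21 negative with a median of −0.63. There edgeR called 0 (1.49% of all genes), and 3 had an unadjusted p under 0.05 (16.7%). DESeq2 called 1 higher and 1 lower there (6.34% of all genes) and limma voom 0 (0.733%).

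Of 25 female-biased genes 15 could be tested in these male livers. Between HFD control and lean 1 rose, 1 fell and 13 did not pass, with a median of 1.48. Of the 15, 12 changes were positive and 3 negative, and 9 had an unadjusted p under 0.05. Over all genes, in either direction, 8.33% were called and 24.6% had such a p. DESeq2 called 4 higher and 1 lower (14.5% of all genes), and limma voom 2 higher and 1 lower (7.06%). Cyp2b9 and Cyp2b13 had no count in lean libraries, so they could pass the filter only through the high-fat groups. Cyp2a4 (0.232, 0.204 and 0.35 CPM in lean 2 to 4) and Acot3 (0.186, 0.204 and 0) also needed high-fat libraries to pass. Their changes of 2.44 and 3.86 likewise lay above the median. Cyp2b9, Cyp2b13 and Acot3 are among the 9 with an unadjusted p under 0.05. A bound of 3 counts per lean library leaves Cyp2b9 and Cyp2b13 above the median, so it cannot show how far their inclusion raised it. The median was 0.97 with no filter on low counts and 0.91 without HFD control 3. Cd36, for a fatty acid transporter with higher levels in female liver, had 29.8 ± 4.37 CPM in lean and 193 ± 101 in HFD control livers. It rose by 2.70 ± 0.34 (adjusted p = 0.00267) and was called in 22 of 22 alternatives. Cyp17a1, for a steroid hydroxylase, was at 27.2, 26.8, 126 and 27.4 CPM in lean and 3.51, 4.95, 13.9 and 10.8 in HFD control, a change of −2.65 ± 0.67 (adjusted p = 0.0355), and was called in 12 of 22 alternatives. Without lean 3 it was at −1.69 (adjusted p = 0.081), and leaving out any 1 HFD control library also ended the call. In NM-FGF19 against lean 1 of 15 rose, Cd36 at 1.73 ± 0.33 (adjusted p = 0.0247; called in 14 of 22 alternatives). The call was lost with any 1 lean library removed (adjusted p up to 0.0764) but not with lean 3 and HFD control 3 removed together. The median was 0.84, and leaving out lean 1, 3 or 4 gave 1.81, 1.33 or 1.64, leaving out HFD control 1 gave 1.27, and leaving out NM-FGF19 1 or 3 gave 1.40 or 1.48. It was 1.63 with limma voom and 0.54 with no filter. DESeq2 called 5 higher (6.34% of all genes were called) and limma voom 1 (0.733%). By edgeR 6 had an unadjusted p under 0.05, against 16.7% of all genes, where 1.49% were called. Of these 6, Cyp2a4, Cyp2b9 and Cyp2b13 needed high-fat libraries to pass the filter, so their rise against lean is not independent of it. Cux2, also among the 6, was lower, at −2.44. In NM-FGF19 against HFD control edgeR called 0 (0.432% of all genes), and 3 had an unadjusted p under 0.05 (8.94%). DESeq2 called 1 higher (1.89% of all genes were called), limma voom 0 (0.334%), and edgeR without lean 3 called 1 higher (84 of 15664 genes were called). The median was 0.05, and with 1 library left out it ran from −0.23 (without NM-FGF19 2) to 0.17 (without HFD control 4).

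Within the high-fat groups most male-biased genes were highest and lowest in the same libraries as Ghr and Igfals, while the female-biased genes shared only one end of that order. HFD control 2 was highest of its group for 19 of 23 male-biased genes and lowest for 10 of 15 female-biased ones, and HFD control 3 was lowest for 17 of the male-biased. NM-FGF19 3 was likewise highest for 19 of 23 male-biased and lowest for 11 of 15 female-biased genes, and NM-FGF19 4 lowest for 14 of the male-biased. Female-biased genes were most often highest in HFD control 4 (8 of 15, against 5 in HFD control 3) and NM-FGF19 2 (9 of 15, against 5 in NM-FGF19 4). For the male-biased genes in lean livers the low end was shared and the high end was not. Lean 3, with the lowest Ghr and Igfals but the highest Socs2 and Cish, was lowest for 17 of 23 male-biased genes. Those genes were most often highest in lean 4 (9 of 23), while Ghr and Igfals were highest in lean 1. Unlike in the high-fat groups, this library also counted as highest for 7 of 15 female-biased genes. These were Cyp2a4, Cux2, Trim24, Acot3, Acot4, and Cyp2b9 and Cyp2b13, which were tied without a count in lean. Lean 4 was lowest for 6 of the 15. Moxd1, a male-biased gene named after its values were seen, was at 54.2, 372.5, 0.107 and 0.0568 CPM in HFD control libraries, 279.9, 29.1, 392 and 12.4 in NM-FGF19 and 376, 563, 721 and 582 in lean. Cyp2b9, a female-biased gene of a family with near-identical copies and also named after its values were seen, had no count in lean libraries and was at 1.32, 0.348, 17.9 and 42.4 CPM in HFD control and 23.5, 198, 6.55 and 91.3 in NM-FGF19. It was lowest of its group in HFD control 2 and NM-FGF19 3.

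Markers of several other cell types moved with part of this order. The summed markers of 5 of 10 lists, those of stellate cells, recruited macrophages, neutrophils, bile duct cells and adipocytes, were highest of their group in HFD control 3, in NM-FGF19 4 and also in lean 3. In each of these libraries Ghr and Igfals were lowest. Spp1 is on both the recruited macrophage and the bile duct list, so the sums of these lists are not independent. The Kupffer cell sum went opposite ways, highest of its group in HFD control 3 (460.4 CPM) and lowest in NM-FGF19 4 (91.4 CPM). The stellate sum was 529, 539.6, 1046 and 419 CPM in HFD control 1 to 4 and 612, 344, 299.9 and 883 in NM-FGF19 1 to 4. Recruited macrophage sums were 331, 211 and 305 CPM in HFD control 3, NM-FGF19 4 and lean 3, bile duct sums 126, 119.8 and 279, adipocyte sums 87.6, 65.2 and 57.5, and neutrophil sums 22.3, 27.9 and 74.2. Lep, the defining adipocyte hormone gene, was at 0 in all libraries. The summed hepatocyte markers were 83140 and 153400 CPM in HFD control 3 and NM-FGF19 4, within the range of their groups, and at 151200 CPM were highest of the lean group in lean 3. Whether the make-up of the tissue has a part in the order was not tested.

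**Figure D3:**
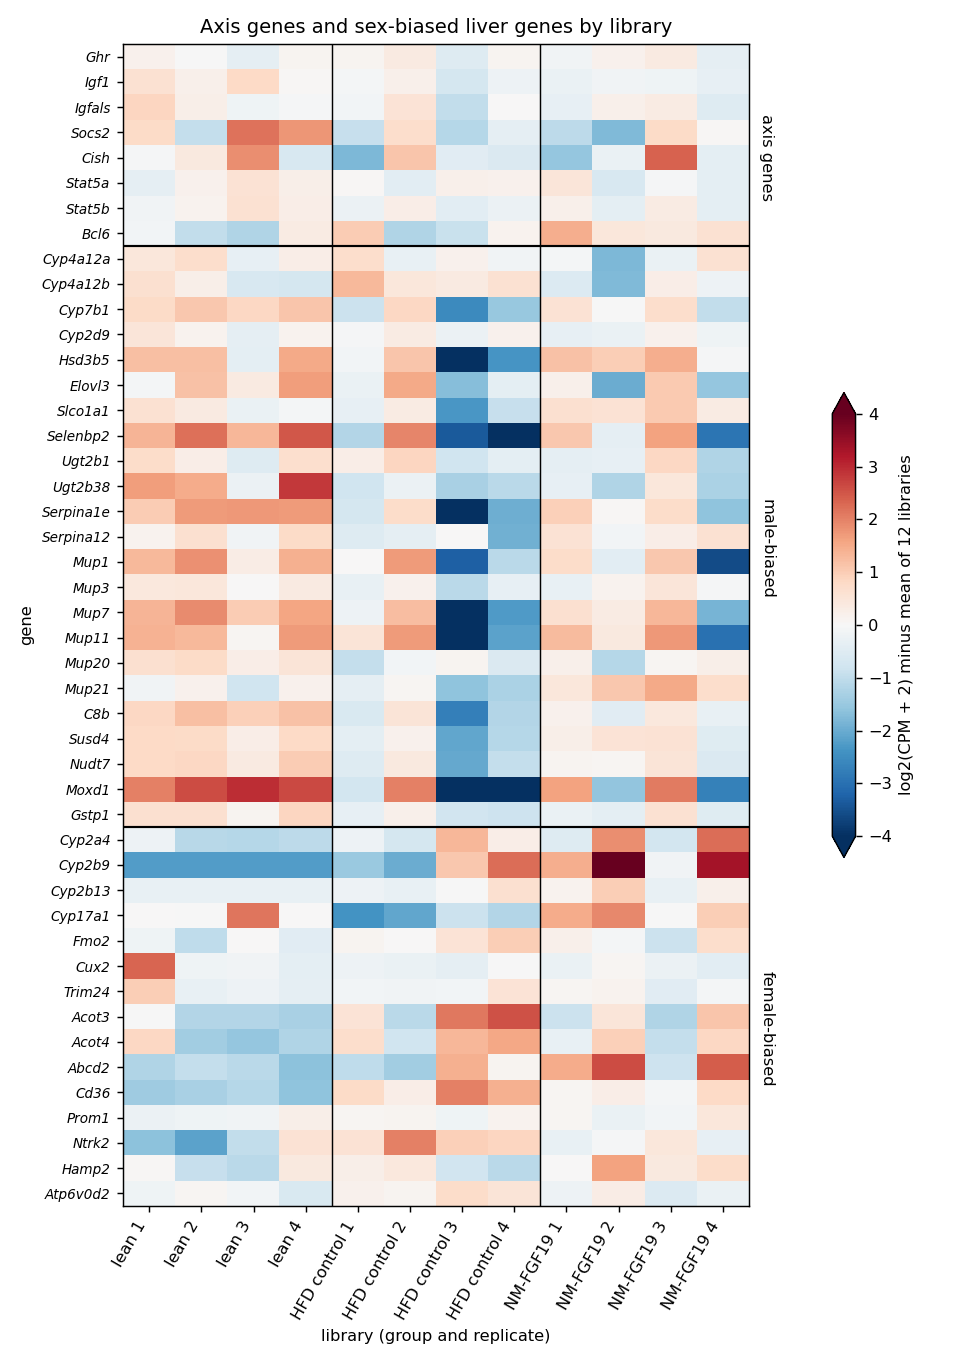
Heat map of log2(CPM + 2) minus the mean of 12 libraries (colour, ending at −4 and 4) for the 8 axis genes and the 23 male-biased and 15 female-biased genes tested (rows) in each library (columns, by group). HFD control 2 and NM-FGF19 3 are reddest of their groups over most male-biased rows (19 of 23 each), while HFD control 3 and NM-FGF19 4 are bluest in 17 and 14.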

How the data were processed

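The deposited values are raw counts per gene, which the authors made on build mm39. Trimmomatic, STAR and featureCounts are the tools named, per the submitters' processing notes. What version each had, and the annotation and strand mode, is not given in the sources used here. Per the labels, a stranded mRNA kit was used on 100 ng of RNA, with paired reads of 101 nt. All 12 columns were mapped to samples by name, and 0 were left over. Mice killed before treatment were not analysed here.

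Symbols matched 52083 of 55359 gene IDs. IDs without a symbol held 0.515% of counts and stayed in the library totals and tests. Genes passing filterByExpr (minimum count 10) entered edgeR 4.0.16 (R 4.3.3): TMM scaling, robust quasi-likelihood F test, 2-sided, all 12 samples in 1 fit with group as the only term, Benjamini-Hochberg adjustment, threshold 0.05. The SE is the one implied by the F statistic. Log2 CPM used a prior count of 2. Floors of 3 counts cover counting error only. Between replicates of a group, counts differed by a chi-square of at least 38.5 per degree of freedom, far above counting error. Replicate numbers in the labels do not come with a shared animal, batch or day.

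Exon lengths and overlapping genes are from GENCODE vM21 (GRCm38), a build older than that of the counts, so no gene coordinates are given. Start-site windows are from RefSeq on GRCm38.p6, where 7 of the 8 members have an entry. The search had been planned for bases before the start only, and was widened to the whole windows after the copies in Cish were seen there. Socs2 and protein sequences were not used here.

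Named genes are the 8 members in every comparison and, from each of the 4 pathway lists and each comparison, the 2 called genes with the smallest adjusted p in the main direction and 1 in the other. Likeness names the 3 genes of mean at least 1 CPM with the highest Pearson correlation. Some genes that these rules name are not reported here. The members and lists were chosen with earlier results of these data known. Alternatives were DESeq2 1.42.0, limma voom (3.58.1), RLE size factors, library totals, no filter, a filter of 1 CPM in 4 samples, a non-robust fit, a fit of only the pair of groups in question, a block for the replicate number, leaving out each library and, added after seeing the data, leaving out lean 3 with HFD control 3. The fit was tested on simulated counts.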

Additional observations from a re-analysis of the deposited data

Results flagged for a closer look

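In 5 of 45 groups of 4 libraries one library stood apart from the other three by more than Dixon's 95% critical value allows. Chance flags about 1 in 20 groups. Cish was at 63.6 CPM in NM-FGF19 3 and 2.32 to 8.58 in the other libraries of that group. Bcl6 was at 123 CPM in NM-FGF19 1 and 58.7 to 68.5 in the others. Cyp17a1 was at 126 CPM in lean 3 and 26.8 to 27.4 in the others. Ptpn2 was at 9.39 CPM in HFD control 3 and 10.8 to 11 in the others. Stc1 was at 0.659 CPM in NM-FGF19 4 and 0.201 to 0.231 in the others.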

How the results depend on the processing

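Of 528 log2 changes of the 8 genes under 22 alternatives, 482 kept their direction and their side of the threshold, 43 turned sign and 3 passed it, all 3 of them Igf1. None of the turned values was called. DESeq2 called 1 member for HFD control against lean and 1 for NM-FGF19 against lean, and with 1 library left out the first count was 0 to 1. The cause was not tested. With library totals alone, Stat5a was at 0.16 for HFD control against lean, and for NM-FGF19 against HFD control Socs2 was at −0.0337, Igfals at −0.12 and Stat5b at −0.0037. With limma voom, Socs2 was at −0.0662 there and Cish at −0.46 for NM-FGF19 against lean. Igfals was at −0.0021 with no filter and −0.0067 with the stricter one. Without lean 3 and HFD control 3, Socs2 was at −0.18 and Igfals at −0.22 for NM-FGF19 against HFD control, Cish at 0.14 for HFD control against lean and Ghr at −0.0437 for NM-FGF19 against lean.

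With 1 library left out, values for HFD control against lean ran from −0.0487 to 0.22 for Ghr, −1.87 to 0.0051 for Cish, −0.33 to 0.0096 for Stat5a and −0.18 to 0.77 for Bcl6. For NM-FGF19 against HFD control they ran from −0.18 to 0.0905 for Ghr, −0.20 to 0.0864 for Igf1, −0.21 to 0.27 for Igfals, −0.56 to 0.67 for Socs2, −0.75 to 2.00 for Cish, −0.41 to 0.0473 for Stat5a and −0.0283 to 0.28 for Stat5b. For NM-FGF19 against lean they ran from −0.0801 to 0.15 for Ghr and −1.61 to 0.99 for Cish.

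The replicate numbers did not pair the samples: 0 of 12 correlations between same-numbered samples were over 0.1 (−0.363 to 0.0712), and 2 of 24 were best with their own number. With the replicate number as a block, 0 members were called in each comparison, Socs2 was at −0.38 for NM-FGF19 against HFD control and Cish at −0.43 for NM-FGF19 against lean. The block moved the calls over all genes from 1272, 66 and 228 to 593, 18 and 40. All 24 member group means stayed within 1 SD with library totals alone. Of 174 values of other named genes 105 kept their call and 69 lost it, and 94 of 528 list counts moved by more than 1.5 times. With 4 mice a group, the intervals of Socs2, Cish and Bcl6 span more than 2 log2 units.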
